A study of Homo sapiens with 24 samples.

Results

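The 45 mitosis and G2/M genes examined here encode the kinases, cyclins, spindle, kinetochore and cytokinesis proteins that carry a cell from the end of DNA replication through division. They were taken by symbol from a table of 25341 named genes, and 45 of 45 were found, passed the filter on low values and were tested. RNA had been sequenced from 4 multiple myeloma cell lines, MM1R, MM1S, KMS-12-BM and KMS-12-PE, with 3 libraries of cells given siRNA against IRF4 (siIRF4) and 3 libraries of control cells (CTRL) per line, 24 in all. MM1R and MM1S are sublines of the same parental myeloma line, and KMS-12-BM and KMS-12-PE are related lines from a bone marrow and a pleural effusion. The siIRF4 cells had received a pool of ON-TARGET siRNAs by electroporation and carried the label siIRF4 48 hour, and the CTRL cells carried the label DMSO 0 Hour. The labels name no control siRNA, so loss of IRF4, delivery of siRNA, electroporation, DMSO and 48 hours of culture against 0 hours cannot be told apart. All groups were grown in the same serum-containing medium. Whether the 3 libraries of a group came from separate cultures is not given in the labels, and p-values then cover the spread among these libraries, which may be technical.

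Entry into mitosis is driven by CDK1 bound to cyclin A or B, which the CDC25 phosphatases switch on and which PLK1 and the Aurora kinases amplify. The kinetochore joins each chromosome to the spindle, the checkpoint proteins BUB1B, BUB3 and MAD2L1 hold CDC20 until every chromosome is attached, and the anaphase-promoting complex then marks cyclin B and securin (PTTG1) for destruction. Transcripts of most of these genes, though not of each, are made mainly in G2 phase, under MYBL2 and FOXM1 acting with the MuvB complex. Their level in a culture therefore depends on the share of dividing cells. IRF4 is a transcription factor of plasma cells on which myeloma cells depend.

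IRF4 transcripts were lower in siIRF4 than in CTRL libraries of each line, with losses of 23.5% (MM1R), 50.4% (MM1S), 38.4% (KMS-12-BM) and 52.6% (KMS-12-PE). In each line the 3 siIRF4 libraries lay below the 3 CTRL libraries, with an exact two-sided permutation p of 0.1, the smallest that 3 against 3 allow. Libraries held 17.3 to 27.4 M reads, recovered from the deposited TPM, and 215 (CDC25C) to 30284 reads (MKI67) fell on each of the 45 genes. The plasma cell and myeloma markers were above 1 TPM in every group, 11 of 11, although SDC1 stood at 6.05 and SLAMF7 at 1.76 TPM in KMS-12-BM CTRL.

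In both MM1 lines 45 of 45 genes fell, against 21.2% of the 15113 genes tested in MM1R and 21.1% in MM1S. Higher calls numbered 0 of 45 in both lines, against 25.0% of all genes in MM1R and 29.1% in MM1S. A call is a Benjamini-Hochberg adjusted p under 0.05 in limma, taken over all genes tested, on log2(TPM + 1), and a change is siIRF4 minus CTRL on that scale. The median change of the 45 genes was -0.71 in MM1R and -0.60 in MM1S, beside 0.03 and 0.04 over all genes. As a percentage of the mean TPM, the changes ran from -49.9% (MYBL2) to -16.8% (BUB3) in MM1R and from -46.2% (MYBL2) to -21.9% (BUB3) in MM1S. The 3 siIRF4 libraries lay below the 3 CTRL libraries for 45 of 45 genes in each MM1 line, against 24.4% of all genes in MM1R and 22.6% in MM1S, and lay above them for 0 of 45, against 29.4% and 32.4%. In bulk RNA, fewer dividing cells and less of these transcripts per dividing cell cannot be told apart.

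In the KMS-12 lines fewer of the same genes were called, and changes lay between -0.40 (MKI67, KMS-12-PE) and 0.39 (KIF4A, KMS-12-BM). In KMS-12-BM 6 of 45 rose, 1 fell and 38 were not called, against 11.4% higher and 6.09% lower over all genes, and the median change was 0.10. Changes in KMS-12-BM lay above 0 for 37 of 45 genes, against 60.7% of all genes. In KMS-12-PE 7 rose, 8 fell and 30 were not called, against 15.9% higher and 22.2% lower over all genes, with a median of 0.00, and changes lay above 0 for 23 of 45, against 43.8%. The KMS-12-PE count of 8 was 4 without siIRF4 replicate 2 and 5 without CTRL replicate 3, and the count of 7 was 13 with voom on recovered reads. CCNB2, KIF4A and TOP2A rose in both KMS-12 lines, MYBL2 fell in both, and 27 of the 45 were called in neither. The shares of all genes called in both or in neither KMS-12 line were not counted, so these counts have no background beside them. The groups did not overlap for 23 genes in KMS-12-BM (20 with siIRF4 higher, against 22.0% of all genes, and 3 with siIRF4 lower, against 12.3%) and for 21 in KMS-12-PE (12 higher, against 19.7%, and 9 lower, against 27.7%).

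**Figure D1:**
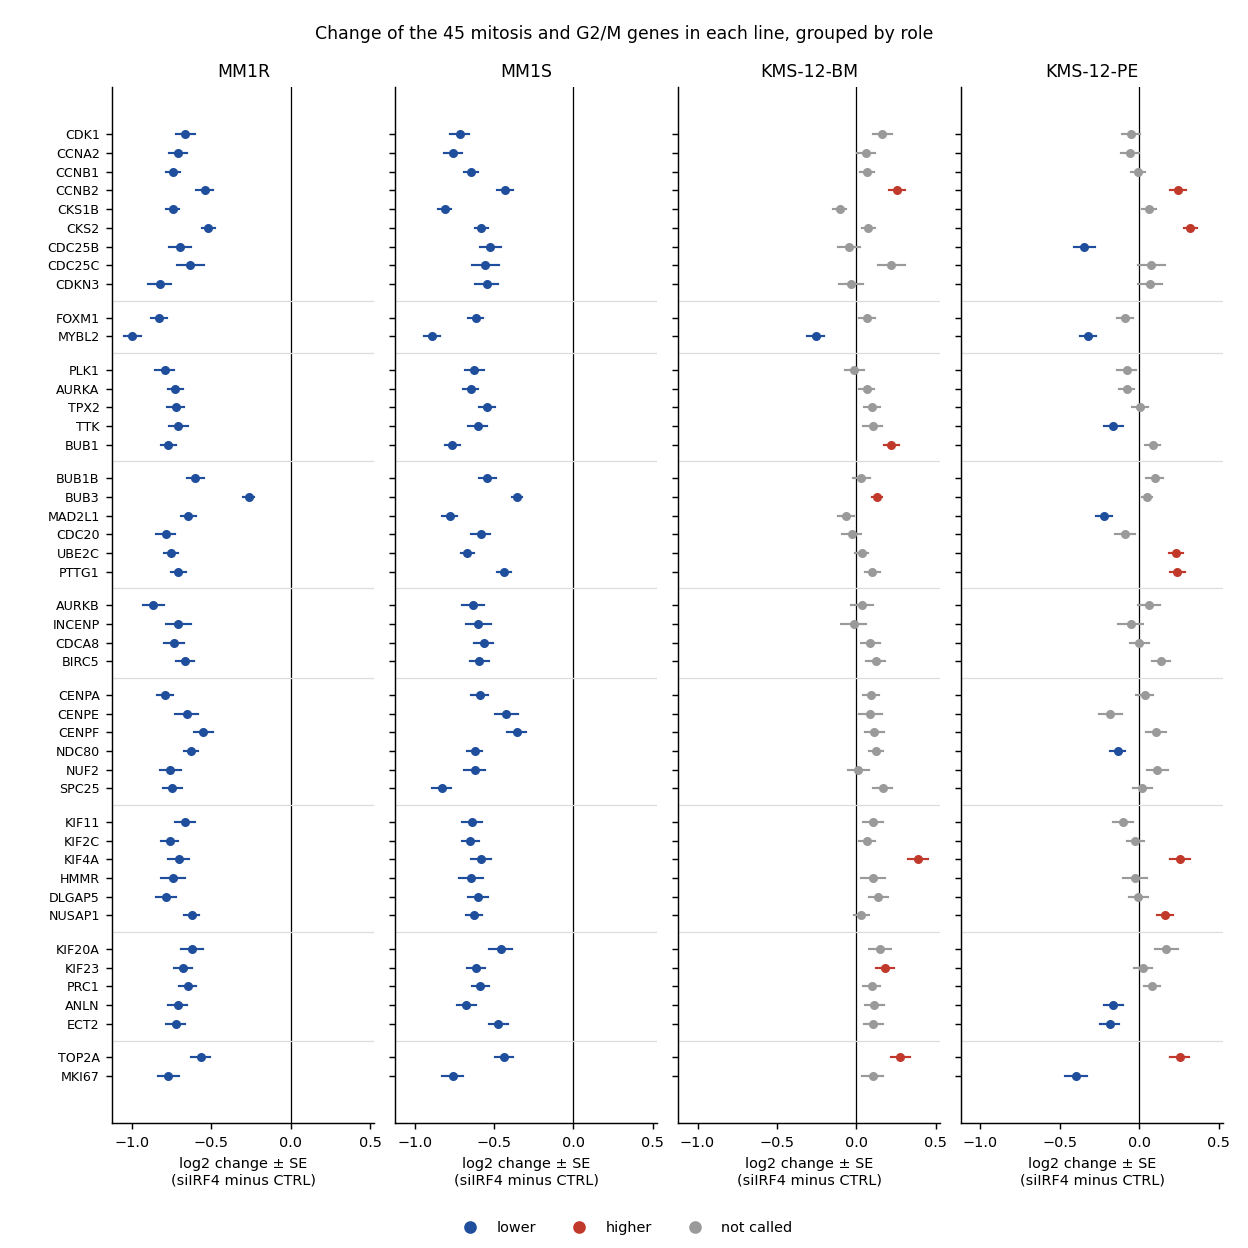
Log2 change (siIRF4 minus CTRL, x axis) of each of the 45 genes, with 1 panel per line and genes grouped by role from the CDK1 complex at the top to chromosome structure at the bottom. Points are limma estimates and bars their SE, blue for genes called lower, red for genes called higher and grey for genes not called. In MM1R and MM1S 45 of 45 points lie left of 0, from -0.995 (MYBL2 in MM1R) to -0.26 (BUB3 in MM1R), and in the KMS-12 lines the points lie on both sides, from -0.40 (MKI67 in KMS-12-PE) to 0.39 (KIF4A in KMS-12-BM).

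The summed level of the 45 genes gives 1 measure of the change per line, weighted towards genes of high TPM. In MM1R the sum went from 5895 ± 115 TPM in CTRL to 3640 ± 266 TPM in siIRF4 cells (mean ± SD, n = 3), a change of -38.3%. In MM1S it went from 6376 ± 131 to 4115 ± 84.2 TPM, a change of -35.5%. The sums were 5654 ± 79.4 and 5793 ± 102 TPM in KMS-12-BM, and 6228 ± 26.2 and 6483 ± 206 TPM in KMS-12-PE, changes of 2.47% and 4.09%. Sums of siIRF4 and CTRL libraries overlapped in KMS-12-BM, whereas each KMS-12-PE siIRF4 sum lay above CTRL. The KMS-12-PE rise is not one shared by the 45 genes, whose median percentage change there was 0.32%. CKS2, the member with the highest TPM in that line, went from 1021, 987 and 1051 TPM in CTRL to 1335, 1259 and 1232 TPM in siIRF4 libraries. The order of the lines by loss of IRF4 transcript was not that by change of the sum. MM1R lost least IRF4 and KMS-12-PE most. Within siIRF4 groups the library lowest in IRF4 was also lowest in the sum in MM1R (replicate 1) and KMS-12-PE (replicate 2), but not in MM1S, and in KMS-12-BM it had the highest sum (replicate 1).

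**Figure D2:**
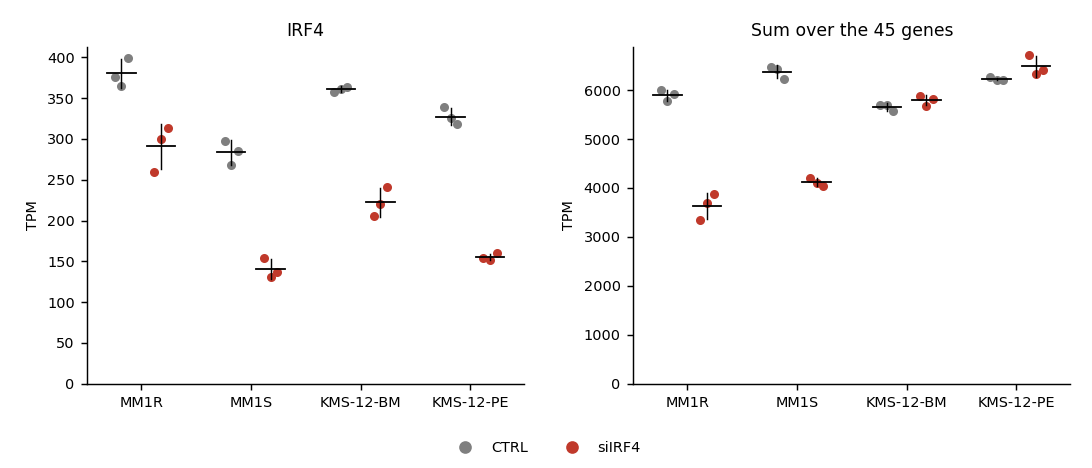
IRF4 (left) and the sum of the 45 genes (right) in TPM in each library, by line, grey for CTRL and red for siIRF4. Points are libraries, horizontal lines means of 3 and vertical lines the SD. IRF4 is lower in siIRF4 libraries of each line, while the sum is lower in the MM1 lines, at 3351 to 4201 TPM against 5769 to 6476 TPM in CTRL, overlaps CTRL in KMS-12-BM and lies slightly above it in KMS-12-PE.

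Promoters of G2/M genes are known for a short element near the start of transcription, the cell cycle genes homology region, whose letters are TTTGAA or TTTAAA, and for CCAAT boxes upstream of it. RefSeq promoter sequences (GRCh38.p14, 250 bases before to 50 after a start site) were matched by symbol for 38 of the 45 genes, and genes with several start sites were counted once if any of their windows held the letters. FOXM1, AURKA, TPX2, TTK, BUB3, UBE2C and BIRC5 had no entry. The letters TTTGAA, on either strand, were in 28 of 38 promoters (73.7%), beside 13.8% of the 10287 tested genes with a promoter kept and 15.2% of all 35116 promoters kept. TTTAAA was in 34.2%, beside 11.1% of tested genes and 12.2% of all promoters. CCAAT was in 31 of 38 (81.6%), beside 43.1% and 34.6%, and TTTGAA and CCAAT together in 24 of 38 (63.2%), beside 5.71% and 5.90%. TTTCCCGC, the letters of an E2F element, was in 2.63%, beside 3.17% and 1.63%. These shares describe the genes and not the response. In MM1R the median change was -0.71 over the 28 genes with TTTGAA and -0.72 over the 10 without it, and in MM1S it was -0.60 and -0.64. Among the 10, however, CCNB1, CDC25B, PTTG1, CENPE, KIF2C and KIF20A hold TTTAAA. The split therefore does not set genes with the element against genes without it.

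Printed here are the 120 bases before the start site of 5 genes that hold these letters and differ in their response, and of MYBL2, the gene with the largest fall, whose 120 bases hold neither. Capitals mark TTTGAA and CCAAT, the latter as ATTGG where it lies on the opposite strand, and in MKI67 the TTTGAA nearer the start site overlaps an ATTGG. The sequences run 5′ to 3′ in the direction of the gene and come from RefSeq, build GRCh38.p14. CCNB2 (chr15:59105026-59105145, plus strand), CKS1B (chr1:154974561-154974680, plus strand) and PLK1 (chr16:23678769-23678888, plus strand) fell in both MM1 lines, and CCNB2 rose in both KMS-12 lines. KIF4A (chrX:70289984-70290103, plus strand) had the largest rise in KMS-12-BM, MKI67 (chr10:128126424-128126543, minus strand) the largest fall in KMS-12-PE, and MYBL2 is at chr20:43666994-43667113, plus strand.
CCNB2: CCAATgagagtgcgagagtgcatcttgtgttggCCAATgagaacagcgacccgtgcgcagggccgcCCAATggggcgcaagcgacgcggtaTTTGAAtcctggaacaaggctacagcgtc
PLK1: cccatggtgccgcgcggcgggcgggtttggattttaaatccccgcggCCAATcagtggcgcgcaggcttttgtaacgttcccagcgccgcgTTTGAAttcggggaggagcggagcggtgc
CKS1B: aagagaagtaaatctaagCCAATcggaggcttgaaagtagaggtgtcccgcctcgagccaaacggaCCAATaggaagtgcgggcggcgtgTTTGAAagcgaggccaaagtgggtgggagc
KIF4A: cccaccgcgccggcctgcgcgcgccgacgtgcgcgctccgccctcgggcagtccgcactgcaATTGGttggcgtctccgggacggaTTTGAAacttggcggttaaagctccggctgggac
MKI67: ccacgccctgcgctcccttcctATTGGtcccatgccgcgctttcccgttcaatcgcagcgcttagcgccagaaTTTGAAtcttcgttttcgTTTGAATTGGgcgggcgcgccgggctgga
MYBL2: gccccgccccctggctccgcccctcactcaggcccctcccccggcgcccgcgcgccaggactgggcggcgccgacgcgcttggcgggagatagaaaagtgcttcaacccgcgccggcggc
In CCNB2, PLK1, CKS1B and KIF4A the TTTGAA begins 29, 29, 30 and 34 bases before the start site, and in MKI67 the copies begin 47 and 29 bases before it.

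The CDK1 complex and its direct regulators are 9 of the genes. In both MM1 lines 9 of 9 fell, with median changes of -0.70 in MM1R and -0.58 in MM1S. CKS1B, a small subunit that docks CDK1 onto its substrates, had the largest mean fall of the group over the MM1 lines. It was at 376, 388 and 368 TPM in MM1R CTRL and at 208, 226 and 242 TPM in MM1R siIRF4 libraries, and at 319, 332 and 306 against 183, 180 and 180 TPM in MM1S. These were changes of -0.74 ± 0.042 and -0.81 ± 0.042 (SE), and the groups lay far apart. In KMS-12-BM CKS1B was at 464, 445 and 450 against 408, 426 and 430 TPM and in KMS-12-PE at 409, 404 and 418 against 431, 437 and 418 TPM, and neither change was called. The annotation names 6 pseudogenes of CKS1B, so reads could be split among them by the counting, as could those of 8 other members with named pseudogenes (UBE2C, AURKA, CCNB2, BUB1, BUB3, CDC20, DLGAP5 and MKI67).

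CCNB2, a B-type cyclin, had the smallest mean fall of the group over the MM1 lines and rose in the KMS-12 lines. Its values were 126, 125 and 111 TPM in MM1R CTRL against 77.3, 84.6 and 86.0 TPM in siIRF4, and 144, 138 and 134 against 103, 103 and 102 TPM in MM1S. In KMS-12-BM it went the other way, from 123, 126 and 125 to 154, 141 and 152 TPM, and in KMS-12-PE from 177, 183 and 181 to 229, 202 and 211 TPM. The changes were -0.54 and -0.43 in the MM1 lines and 0.25 ± 0.051 (limma adjusted p = 0.00129) and 0.24 ± 0.051 (limma adjusted p = 0.000685) in the KMS-12 lines. In each line the siIRF4 and CTRL libraries did not overlap. CCNB1, the main mitotic cyclin, fell by 0.74 in MM1R and by 0.64 in MM1S, and its changes of 0.07 and -0.01 in the KMS-12 lines were not called. CCNA2, cyclin A, and CDK1 itself were likewise called in the MM1 lines alone, with falls of 0.71 and 0.66 in MM1R and of 0.76 and 0.72 in MM1S.

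CKS2, the other CKS subunit, had the largest rise of the 45 genes in KMS-12-PE. It was at 1021, 987 and 1051 TPM in CTRL and at 1335, 1259 and 1232 TPM in siIRF4 libraries there, a change of 0.32 ± 0.040 (limma adjusted p = 1.66e-06). In KMS-12-BM it was at 621, 592 and 586 against 627, 637 and 630 TPM, which was not called. In MM1R it fell from 416, 373 and 389 to 272, 276 and 273 TPM and in MM1S from 502, 489 and 510 to 338, 348 and 318 TPM. CKS2 and CKS1B both fell in the MM1 lines, and in KMS-12-PE the change of CKS1B was 0.06, not called. CDC25B, a phosphatase that activates CDK1, fell by 0.70 in MM1R, by 0.52 in MM1S and by 0.35 ± 0.068 in KMS-12-PE (limma adjusted p = 0.000374), and changed by -0.05 in KMS-12-BM, not called. Its relative CDC25C and the CDK phosphatase CDKN3 fell in the MM1 lines, by 0.63 and 0.82 in MM1R, and were called in neither KMS-12 line.

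The transcription factors MYBL2 and FOXM1, which activate G2/M genes, fell in both MM1 lines. MYBL2 had the largest fall of the 45 genes in MM1R and in MM1S. It went from 340, 352 and 363 to 161, 182 and 186 TPM in MM1R and from 408, 406 and 409 to 224, 210 and 224 TPM in MM1S, changes of -0.995 ± 0.052 and -0.89 ± 0.052 (limma adjusted p = 1.29e-11 and 1.92e-11). It was also the single member that fell in both KMS-12 lines. In KMS-12-BM it went from 633, 643 and 591 to 492, 514 and 557 TPM and in KMS-12-PE from 475, 508 and 459 to 374, 387 and 388 TPM, changes of -0.26 ± 0.052 and -0.32 ± 0.052. Those calls held under each of the 14 alternative settings run per line. FOXM1 went from 87.1, 82.4 and 88.6 to 45.1, 49.3 and 49.7 TPM in MM1R and from 77.9, 77.0 and 80.5 to 54.5, 48.5 and 49.6 TPM in MM1S. FOXM1 stood at 120, 119 and 115 against 130, 120 and 120 TPM in KMS-12-BM, while KMS-12-PE had 107, 110 and 99.0 against 97.0, 98.6 and 101 TPM, with overlapping groups and no call.

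Of the mitotic kinases and their activator (PLK1, AURKA, TPX2, TTK and BUB1), 5 of 5 fell in each MM1 line, and they lay close together, between -0.79 (PLK1) and -0.71 (TTK) in MM1R. BUB1, a kinase of the kinetochore, had the largest mean fall, from 230, 217 and 224 to 120, 135 and 138 TPM in MM1R and from 256, 260 and 236 to 151, 149 and 142 TPM in MM1S. In KMS-12-BM it rose, from 100, 104 and 99.0 to 120, 118 and 115 TPM (0.22 ± 0.048, limma adjusted p = 0.00283), and in KMS-12-PE it was at 173, 170 and 170 against 189, 171 and 184 TPM, not called. TPX2, which targets Aurora A to the spindle, had the smallest mean fall. It went from 176, 161 and 170 to 92.7, 102 and 111 TPM in MM1R and from 176, 165 and 170 to 119, 118 and 112 TPM in MM1S. In KMS-12-BM TPX2 was at 165, 166 and 162 against 183, 166 and 180 TPM and in KMS-12-PE at 217, 207 and 206 against 221, 205 and 207 TPM, and neither was called. PLK1, the kinase that drives mitotic entry, fell by 0.79 ± 0.061 in MM1R and by 0.62 ± 0.061 in MM1S, beside changes of -0.01 (KMS-12-BM) and -0.08 (KMS-12-PE). TTK, the kinase that starts checkpoint signalling, changed by -0.16 ± 0.061 in KMS-12-PE (limma adjusted p = 0.0415). That call was lost in 5 of the 6 fits that leave out a KMS-12-PE library, with adjusted p of 0.209 without siIRF4 replicate 2, and under 4 other alternatives, among them median-of-ratios scaling (0.0672) and the replicate block (0.0545).

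All 6 spindle checkpoint and anaphase genes fell in each MM1 line. MAD2L1, which inhibits CDC20, had the largest mean fall of the group over both lines and went from 195, 189 and 200 to 113, 128 and 133 TPM in MM1R and from 270, 279 and 265 to 161, 165 and 148 TPM in MM1S. MAD2L1 stood at 210, 214 and 207 against 206, 193 and 204 TPM in KMS-12-BM, not called, and fell in KMS-12-PE from 138, 145 and 148 to 126, 122 and 121 TPM (-0.22 ± 0.049, limma adjusted p = 0.00115). BUB3, a checkpoint protein that binds BUB1 and BUB1B, had the smallest fall of the 45 genes. It went from 208, 204 and 205 to 164, 175 and 175 TPM in MM1R and from 242, 255 and 241 to 196, 193 and 188 TPM in MM1S, changes of -0.26 ± 0.032 and -0.35 ± 0.032. It rose in KMS-12-BM, from 196, 204 and 196 to 223, 209 and 219 TPM (0.13 ± 0.032, limma adjusted p = 0.00809), while KMS-12-PE had 120, 120 and 120 against 126, 123 and 124 TPM, not called. The KMS-12-BM call was lost under median-of-ratios scaling (adjusted p = 0.0783), under voom (0.122), in a fit of the compared libraries alone (0.0534) and without siIRF4 replicate 1 (0.0524).

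UBE2C, the ubiquitin-conjugating enzyme of the anaphase-promoting complex, and PTTG1, its substrate securin, fell in the MM1 lines and rose in KMS-12-PE. There UBE2C went from 148, 144 and 149 to 176, 166 and 176 TPM, and PTTG1 from 121, 115 and 127 to 148, 138 and 143 TPM. Their changes in KMS-12-PE were 0.23 ± 0.042 and 0.24 ± 0.046 (limma adjusted p = 0.000159 and 0.000275), and the groups did not overlap. CDC20, the activator of the complex, changed by -0.09 in KMS-12-PE, and BUB1B by 0.10, and neither was called in either KMS-12 line.

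In the chromosomal passenger complex (AURKB, INCENP, CDCA8 and BIRC5), which corrects wrong attachments and guides cytokinesis, 4 of 4 fell in each MM1 line and 0 of 4 were called in each KMS-12 line. AURKB, its kinase, went from 119, 118 and 137 to 62.6, 68.4 and 73.7 TPM in MM1R and from 151, 153 and 158 to 100, 97.4 and 98.4 TPM in MM1S. In KMS-12-BM AURKB was at 116, 124 and 123 against 130, 120 and 123 TPM, and in KMS-12-PE at 118, 103 and 96.1 against 118, 107 and 105 TPM. The changes in the MM1 lines were -0.86 ± 0.069 and -0.63 ± 0.069. BIRC5, survivin, had the smallest mean fall over the MM1 lines, from 148, 148 and 143 to 80.8, 94.9 and 101 TPM in MM1R and from 150, 154 and 147 to 100, 99.2 and 97.7 TPM in MM1S. In KMS-12-BM it was at 82.2, 83.9 and 86.6 against 99.8, 86.5 and 89.1 TPM, and in KMS-12-PE at 170, 170 and 166 against 192, 185 and 180 TPM. The KMS-12-PE groups of BIRC5 did not overlap, but the change of 0.14 ± 0.058 missed the threshold (limma adjusted p = 0.0694), which it passed under 4 of the alternatives, with adjusted p from 0.00595 to 0.0485.

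Among the 6 centromere and kinetochore genes, 6 of 6 fell in each MM1 line. SPC25, a subunit of the NDC80 complex that grips microtubules, had the largest mean fall over the MM1 lines, from 81.7, 82.4 and 77.5 to 44.1, 46.3 and 53.0 TPM in MM1R and from 96.0, 97.6 and 85.8 to 52.2, 49.7 and 53.7 TPM in MM1S. SPC25 stood at 53.4, 55.2 and 55.4 against 64.9, 59.1 and 60.3 TPM in KMS-12-BM, without overlap but not called (limma adjusted p = 0.0631), while KMS-12-PE had 73.5, 72.1 and 80.6 against 76.7, 74.4 and 77.8 TPM. CENPF, a large kinetochore protein, fell least, from 100, 91.4 and 98.7 to 62.2, 66.2 and 69.2 TPM in MM1R and from 99.5, 87.8 and 88.1 to 74.3, 71.5 and 68.4 TPM in MM1S. In KMS-12-BM CENPF was at 62.9, 64.0 and 63.9 against 73.1, 67.3 and 66.2 TPM and in KMS-12-PE at 35.3, 32.5 and 32.6 against 39.4, 33.4 and 35.5 TPM, not called. NDC80 fell by 0.63 and 0.62 in the MM1 lines and by 0.14 ± 0.045 in KMS-12-PE (limma adjusted p = 0.0218). The last call was lost without KMS-12-PE siIRF4 replicate 2 (limma adjusted p = 0.111), siIRF4 replicate 3 (0.0529) or CTRL replicate 3 (0.0913), under median-of-ratios scaling (0.0764) and under voom (0.0809). CENPA, the histone variant that marks centromeres, fell by 0.79 in MM1R and by 0.59 in MM1S, and with NUF2 and the kinesin CENPE it was called in neither KMS-12 line. CENPE was called lower in KMS-12-PE under some alternatives, with limma adjusted p from 0.012 (without siIRF4 replicate 1) to 0.0427 (voom).

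The spindle motors and microtubule proteins (KIF11, KIF2C, KIF4A, HMMR, DLGAP5 and NUSAP1) fell in each MM1 line, 6 of 6, and lay between -0.65 (KIF2C) and -0.58 (KIF4A) in MM1S. KIF2C, which removes wrong attachments, went from 73.6, 75.6 and 77.5 to 39.3, 44.7 and 49.0 TPM in MM1R and from 70.9, 70.8 and 69.3 to 43.8, 45.7 and 44.1 TPM in MM1S. KIF2C stood at 55.7, 56.0 and 53.0 against 57.8, 58.8 and 55.9 TPM in KMS-12-BM, while KMS-12-PE had 159, 160 and 157 against 162, 153 and 154 TPM, with no call in either. NUSAP1, which bundles spindle microtubules, had the smallest mean fall over the MM1 lines, from 235, 211 and 220 to 132, 148 and 152 TPM in MM1R and from 305, 318 and 292 to 197, 204 and 191 TPM in MM1S. NUSAP1 stood at 297, 295 and 290 against 303, 293 and 305 TPM in KMS-12-BM, not called, and rose in KMS-12-PE from 221, 224 and 233 to 259, 241 and 258 TPM (0.16 ± 0.048, limma adjusted p = 0.0116).

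KIF4A, a chromosome-bound kinesin that organises the central spindle, showed the widest contrast between lines. It fell from 46.9, 42.3 and 45.4 to 24.8, 27.9 and 28.7 TPM in MM1R and from 39.1, 37.4 and 37.4 to 27.7, 22.4 and 25.2 TPM in MM1S. In KMS-12-BM it rose from 27.5, 26.7 and 26.4 to 38.0, 35.0 and 33.6 TPM, and in KMS-12-PE from 30.7, 30.7 and 30.5 to 37.7, 37.1 and 35.8 TPM. The changes were -0.71, -0.58, 0.39 ± 0.064 and 0.26 ± 0.064, with limma adjusted p of 0.000162 and 0.00278 in the KMS-12 lines, and the groups did not overlap in any line. KIF4A is 1 of 13 members with an exon overlapping a gene on the opposite strand (here PDZD11), and whether the counting used strand is not given in the sources used here.

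The 5 cytokinesis genes fell in both MM1 lines, 5 of 5. ANLN, the scaffold of the contractile ring, had the largest mean fall over the MM1 lines, from 31.7, 29.1 and 30.4 to 16.6, 19.2 and 18.8 TPM in MM1R and from 38.6, 37.9 and 37.9 to 25.2, 23.3 and 22.1 TPM in MM1S. In KMS-12-BM it was at 32.0, 31.6 and 33.5 against 37.4, 32.6 and 35.3 TPM, not called, and it fell in KMS-12-PE from 66.8, 63.8 and 65.7 to 60.9, 54.3 and 59.9 TPM (-0.16 ± 0.060, limma adjusted p = 0.0346). KIF20A, the kinesin that carries Aurora B to the midzone, fell least. It went from 40.6, 36.9 and 39.0 to 22.3, 26.2 and 26.2 TPM in MM1R and from 43.5, 40.8 and 38.9 to 30.4, 28.9 and 29.4 TPM in MM1S, and was at 23.0, 24.2 and 23.2 against 26.6, 26.5 and 25.3 TPM in KMS-12-BM and at 28.6, 27.2 and 25.5 against 34.8, 29.3 and 28.1 TPM in KMS-12-PE, not called in either. KIF20A was called higher in KMS-12-PE under some alternatives, with limma adjusted p from 0.00649 (voom) to 0.0484 (replicate block). KIF23, its partner in the central spindle, rose by 0.18 ± 0.057 in KMS-12-BM (limma adjusted p = 0.0339), and ECT2, which activates RHOA for furrowing, fell by 0.19 ± 0.060 in KMS-12-PE (limma adjusted p = 0.0183). The calls of KIF23, ANLN and ECT2 in the KMS-12 lines were lost in some alternatives. That of KIF23 was lost in 5 of 6 fits without a KMS-12-BM library (siIRF4 replicate 3 was the exception), under median-of-ratios scaling (limma adjusted p = 0.0719), voom (0.0717) and no filter (0.0509). That of ANLN was lost without KMS-12-PE siIRF4 replicate 2 (limma adjusted p = 0.188), CTRL replicate 1 (0.101) or CTRL replicate 3 (0.075) and with no filter (0.0509), and that of ECT2 without siIRF4 replicate 2 (0.102) or CTRL replicate 3 (0.0554).

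TOP2A, the topoisomerase that untangles chromosomes, and MKI67, the proliferation marker Ki-67 that coats them, both fell in the MM1 lines and moved apart in KMS-12-PE. MKI67 went from 244, 226 and 249 to 130, 143 and 148 TPM in MM1R and from 233, 213 and 210 to 142, 125 and 120 TPM in MM1S, changes of -0.77 and -0.76. MKI67 stood at 103, 106 and 99.3 against 115, 110 and 107 TPM in KMS-12-BM, without overlap but not called, and fell in KMS-12-PE from 91.0, 86.4 and 79.9 to 67.6, 59.6 and 67.2 TPM (-0.40 ± 0.067, limma adjusted p = 6.54e-05). TOP2A went from 251, 226 and 233 to 148, 162 and 168 TPM in MM1R and from 261, 247 and 243 to 191, 185 and 177 TPM in MM1S. It rose from 222, 225 and 218 to 293, 258 and 257 TPM in KMS-12-BM (0.28 ± 0.058, limma adjusted p = 0.00184) and from 180, 178 and 172 to 228, 197 and 208 TPM in KMS-12-PE (0.25 ± 0.058, limma adjusted p = 0.0015). In KMS-12-PE every MKI67 siIRF4 value was below, and every TOP2A siIRF4 value above, its CTRL values.

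**Figure D3:**
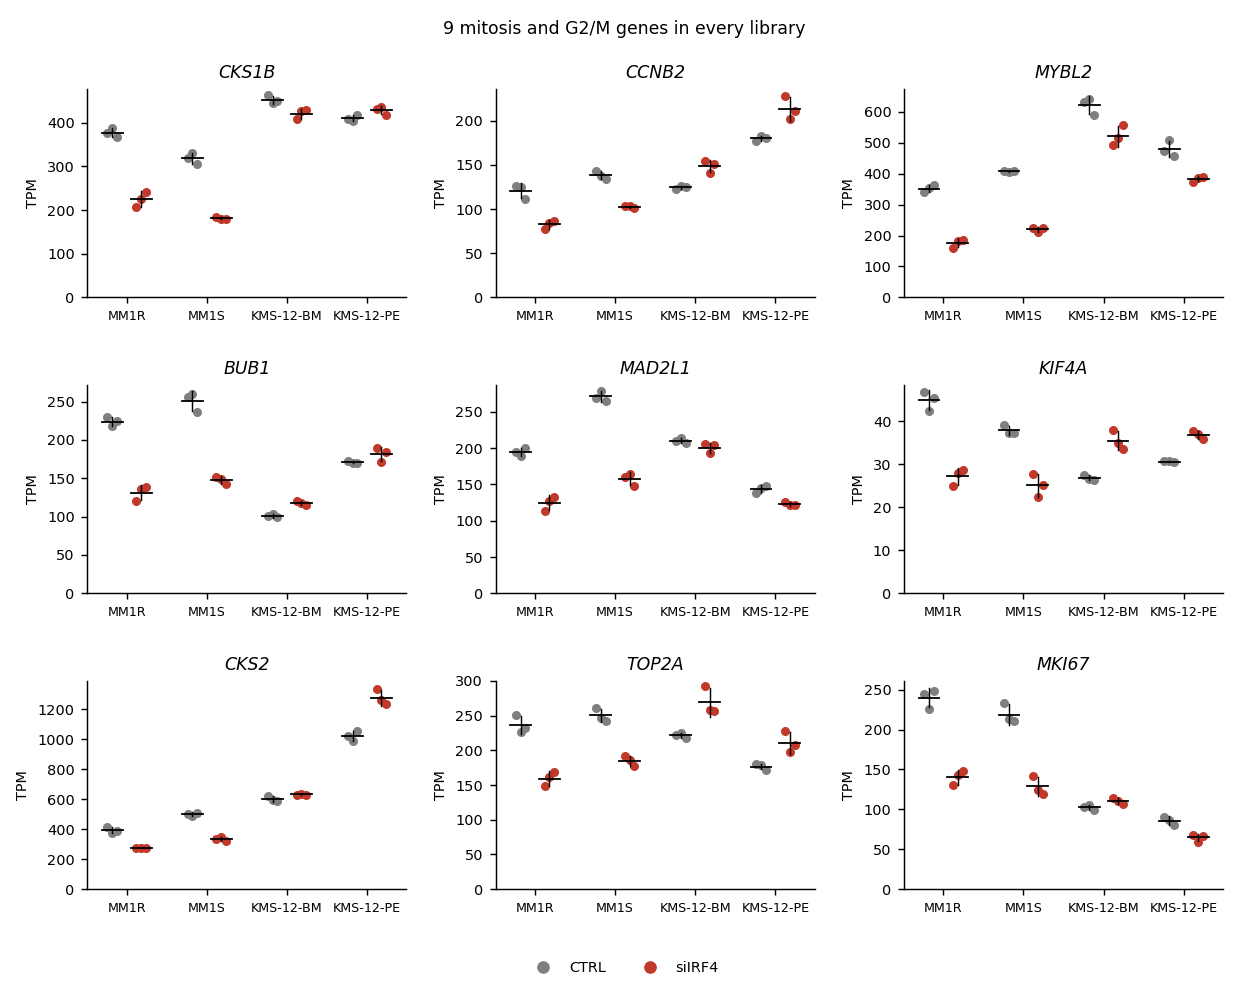
TPM of 9 of the genes (y axes from 0) in each library, by line, grey for CTRL and red for siIRF4, with the mean of 3 (horizontal line) and the SD (vertical line). In MM1R and MM1S the siIRF4 points lie below CTRL for each gene, while in KMS-12-PE MYBL2, MAD2L1 and MKI67 are lower and CCNB2, KIF4A, CKS2 and TOP2A higher with siIRF4.

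The difference between the pairs of lines was tested directly, as the mean effect in MM1R and MM1S minus that in the KMS-12 pair. It was below 0 for 45 of 45 genes, against 20.0% of all genes lower and 25.0% higher, with a median of -0.71. The range was from -0.97 ± 0.064 (KIF4A) to -0.40 ± 0.032 (BUB3), and after KIF4A came BUB1 (-0.92), SPC25 (-0.88) and UBE2C (-0.84). For each of the 45 genes the change in either MM1 line was below that in either KMS-12 line. A total of 10 genes were called lower in both MM1 lines and higher in a KMS-12 line, namely CCNB2, CKS2, BUB1, BUB3, UBE2C, PTTG1, KIF4A, NUSAP1, KIF23 and TOP2A, a pattern held by 303 (2.0%) of the 15113 genes tested. All 45 genes met the MM1 part of this pattern, beside at most 21.1% of all genes. The 2.0% is therefore not a share among genes lower in both MM1 lines. The KMS-12 rises alone, 6 of 45 in KMS-12-BM and 7 of 45 in KMS-12-PE, were near the shares over all genes (11.4% and 15.9%). The KMS-12-BM calls behind 2 of the 10 were lost in some of the 14 alternatives, BUB3 in 4 and KIF23 in 8. CDC25B (-0.41) and CENPE (-0.49) were next to BUB3 at the small end, and both lay below 0 in KMS-12-PE. Averaged over the 4 lines with equal weight, 45 of 45 fell, against 26.5% of all genes (0 rose, against 33.1%), with a median of -0.32.

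Between MM1R and MM1S the effects differed little. The fall was larger in MM1R for 37 of 45 genes, with a median difference of -0.10, beside -0.02 over all genes. The share of all genes with a difference below 0 was not counted, so the 37 has no background beside it. Only 1 gene, PTTG1, passed the test of the difference, against 1.33% of all genes lower and 1.14% higher. PTTG1 went from 141, 145 and 140 to 80.1, 86.5 and 93.2 TPM in MM1R and from 146, 142 and 143 to 106, 105 and 106 TPM in MM1S, a difference of effects of -0.27 ± 0.065 (limma adjusted p = 0.0296). That call was lost in 13 of 20 alternatives, 9 of them fits without a library, with adjusted p up to 0.109. CDKN3 had a difference of the same size, -0.28 ± 0.104, that was not called (limma adjusted p = 0.165). SPC25, MAD2L1 and CKS1B fell more in MM1S, by 0.09, 0.14 and 0.07, and these differences were not called.

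Between KMS-12-BM and KMS-12-PE the effects differed for 9 genes. In 6 the effect was higher in KMS-12-BM (against 15.9% of all genes) and in 3 lower (against 7.11%). MKI67 differed most, by 0.50 ± 0.094 (limma adjusted p = 0.000633), followed by CDC25B (0.30), ECT2 (0.29), ANLN (0.28), NDC80 (0.26) and TTK (0.26). CKS2 (-0.25 ± 0.056, limma adjusted p = 0.00315), UBE2C (-0.20) and CKS1B (-0.17) had the higher effect in KMS-12-PE. The calls of MKI67 and CKS2 held in each of the 20 alternatives, and each of the other 7 was lost in at least 1. The count of 6 fell to 2 without KMS-12-BM siIRF4 replicate 1 or KMS-12-PE siIRF4 replicate 2 and to 3 without KMS-12-BM CTRL replicate 2.

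Transcript lengths, recovered from the ratio of reads to TPM, were set beside the KMS-12-PE calls, with no test. The 7 that rose had a median length of 1549 bases, from CKS2 (613) to TOP2A (5753), and the 8 that fell 3656 bases, from MAD2L1 (1436) to MKI67 (12495), beside 2839 for the 30 not called. Over the 45 genes Spearman's rho between length and change was -0.30 in KMS-12-PE and 0.36 in KMS-12-BM, beside -0.13 and 0.05 over 14934 genes with a recovered length. In MM1R and MM1S it was 0.23 and 0.20. For the difference of effects, KMS-12-BM minus KMS-12-PE, rho was 0.55 over the 45 genes and 0.14 over all. These are correlations across genes of the same libraries, which are not independent replicates, and the part of length in the calls was not tested.

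Markers of other cell types also moved. In KMS-12-PE the summed stromal markers went from 80.1 to 116 TPM in CTRL to 38.1 to 47.1 TPM in siIRF4 libraries, with 7 of 8 tested lower, and DCN went from 31.9 to 7.03 TPM. The summed epithelial markers went from 227 to 248 TPM to 165 to 186 TPM (4 of 7 tested lower, 1 higher). That fall was mostly KRT5, at 55.8 and 17.4 TPM, and KRT14, at 52.3 and 15.7 TPM. The means of EPCAM, the highest of these markers there (129 and 139 TPM), and of CLDN4 (0.662 and 1.25 TPM) went the other way. The summed myeloid markers went from 147 to 183 TPM to 36.4 to 51.5 TPM (2 of 2 lower), with S100A8 at 62.3 and 19.9 TPM and MPO at 0 in each of the 6 libraries. The summed T and NK cell markers were at 26.0 to 29.9 TPM in CTRL and 60.9 to 66.3 TPM in siIRF4 libraries, with 4 of 7 tested higher and CD3D at 0 in siIRF4. Over all genes 22.2% were lower and 15.9% higher in KMS-12-PE. In MM1S, whose 45 genes fell, the stromal sums were at 66.3 to 139 TPM in CTRL and 73.2 to 95.9 TPM in siIRF4 libraries, and in MM1R, whose 45 genes fell too, they were at 0.948 to 1.27 TPM over both groups. The summed myeloid markers in MM1R went from 22.6 to 27.5 TPM in CTRL to 93.1 to 99.7 TPM in siIRF4 libraries, nearly all of it S100A9 (24.8 and 94.7 TPM). KRT5 and S100A8 had means of 50.9 and 52.7 TPM in MM1S CTRL and of 34.5 and 43.2 TPM in MM1S siIRF4 cells. The MM1S sums of their lists overlapped between groups. Epithelial sums were at 90.6 to 129 TPM in CTRL and 39.4 to 102 TPM in siIRF4 libraries, and myeloid sums at 107 to 173 and 63.4 to 169 TPM. In KMS-12-BM the stromal sums went from 70.6 to 75.3 TPM in CTRL to 44.5 to 46.3 TPM in siIRF4 libraries, mostly COL6A3 (67.1 and 40.4 TPM). The T and NK sums there went from 22.8 to 24.7 TPM to 31.3 to 35.5 TPM. The part of these markers in the changes of the 45 genes was not tested.

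Levels in CTRL cells differed between lines gene by gene. Without siIRF4 27 were higher and 14 lower in the MM1 lines than in the KMS-12 lines, against 40.4% higher and 44.8% lower over all genes, with a median difference of 0.29. CDK1 differed most, at 101 ± 2.98 TPM in MM1R and 161 ± 8.43 in MM1S against 41.9 ± 1.36 (KMS-12-BM) and 56.2 ± 2.29 TPM (KMS-12-PE), a log2 difference of 1.38 ± 0.041. MKI67 (1.28), HMMR (1.15), a spindle protein, and CENPF (1.01) followed. CKS2 was the furthest the other way (-0.82 ± 0.028), at 393 ± 21.3 and 501 ± 10.8 TPM in the MM1 lines and 600 ± 18.7 and 1020 ± 32.1 TPM in the KMS-12 lines. MYBL2, FOXM1 and CENPA were also lower in the MM1 lines, with differences of -0.53, -0.44 and -0.52. TPM is a level per transcript length, and on that scale CKS2 was the highest of the 45 genes in MM1R, MM1S and KMS-12-PE, MYBL2 (622 ± 27.6 TPM) the highest in KMS-12-BM, and CDC25C, at 8.51 to 17.1 TPM, the lowest in each line.

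More of the 45 genes differed between the KMS-12 lines than between the MM1 lines at baseline. In CTRL cells 16 genes were higher and 25 lower in KMS-12-BM than in KMS-12-PE, against 37.3% and 40.0% of all genes. KIF2C was at 54.9 ± 1.69 TPM in KMS-12-BM and 159 ± 1.43 TPM in KMS-12-PE (-1.51 ± 0.052), CDC20 at 88.8 ± 3.73 and 212 ± 8.37 TPM (-1.25) and NDC80 at 64.6 ± 1.66 and 142 ± 4.54 TPM (-1.12). CDCA8 (-1.005), BIRC5 (-0.99) and ANLN (-0.99) were likewise lower in KMS-12-BM. The other way, CDKN3 was at 107 ± 1.93 and 55.1 ± 4.43 TPM (0.94) and CENPF at 63.6 ± 0.616 and 33.5 ± 1.57 TPM (0.91). Between MM1R and MM1S 8 were higher and 20 lower in MM1R, against 29.7% and 27.6% of all genes, and the differences ran from -0.66 (CDK1) to 0.61 (INCENP). PLK1 (-0.03) and AURKA (-0.06) were among the 4 genes not called between the KMS-12 lines.

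**Figure D4:**
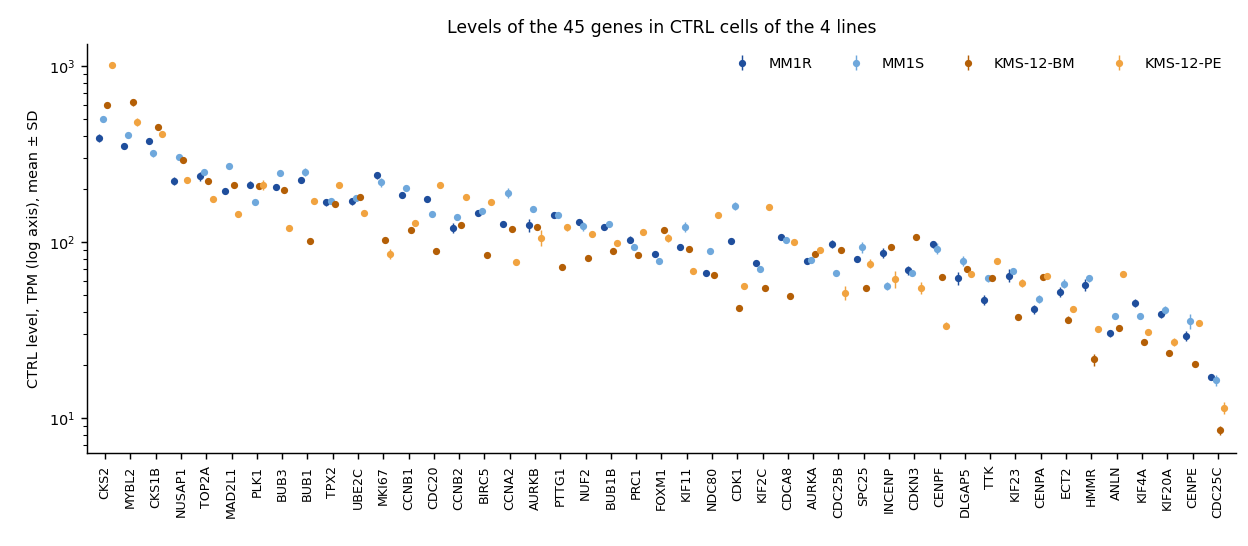
CTRL level of each of the 45 genes in TPM (log axis), mean ± SD of 3 libraries, in the 4 lines, ordered by the mean over lines. CKS2 is the highest in each line but KMS-12-BM, where MYBL2 is, CDC25C is the lowest in each, CDK1, MKI67, HMMR and CENPF are higher in the MM1 lines, and KIF2C, CDC20 and NDC80 are higher in KMS-12-PE than in KMS-12-BM.

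Other genes of cell division, from lists of 8 further complexes, fell in the MM1 lines as well, with exceptions by complex. Of 120 such genes tested, 96 were lower and 7 higher in MM1R and 96 and 6 in MM1S, with medians of -0.57 and -0.50. In KMS-12-BM 2 were lower and 15 higher, and in KMS-12-PE 29 and 14, with medians of 0.05 and -0.04. Over all genes 21.2% were lower and 25.0% higher in MM1R, and 21.1% and 29.1% in MM1S. In the KMS-12 lines 6.09% and 22.2% of all genes were lower and 11.4% and 15.9% higher. The KMS-12 counts of these lists are near or below those shares. Condensin, which compacts chromosomes, fell in 8 of 8 subunits in each MM1 line (median -0.64 and -0.70), among them NCAPH (-0.81 and -0.72). Of 31 further centromere and kinetochore genes, 29 fell in MM1R and 28 in MM1S, with SKA1 at -0.93 and -0.82 and ZWINT at -0.68 and -0.83. Among 19 kinesin and spindle genes 18 fell in each MM1 line, SPAG5 by 0.76 and 0.75, and CKAP2L fell there by 0.65 and 0.47 but rose by 0.46 in KMS-12-BM and by 0.82 in KMS-12-PE.

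Values for the anaphase-promoting complex were nearer 0. Of its 17 subunits, coactivators and regulators, 7 fell and 3 rose in MM1R and 8 fell and 2 rose in MM1S, and the medians were -0.06 and -0.09. Beside these and the following counts, 21.2% of all genes were lower and 25.0% higher in MM1R, and 21.1% and 29.1% in MM1S. The largest falls were those of UBE2S, its chain-extending enzyme (-1.03 and -0.68), and FBXO5, its interphase inhibitor (-0.73 and -0.74), whereas the subunit ANAPC16 rose by 0.29 and 0.38. Cohesin and separase genes fell in 10 and 9 of 13, with CDCA5, which stabilises cohesin, at -0.98 and -1.0 and the loader NIPBL higher by 0.15 and 0.26. Among 14 centrosome genes 12 and 13 fell, with CENPJ at -0.76 and -0.96. Of 7 further cytokinesis genes 3 fell in each MM1 line, among them RACGAP1 (-0.67 and -0.55), the partner of KIF23.

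The regulators upstream of these genes were mixed. Among 11 MuvB and DREAM complex genes, 5 fell and 2 rose in MM1R and 6 and 2 in MM1S. The shares over all genes, for this and the next lists, were 21.2% lower and 25.0% higher in MM1R and 21.1% and 29.1% in MM1S. LIN9, a MuvB subunit, changed by -0.73 in both MM1 lines, and RBL2, the pocket protein p130 that represses with DREAM, rose by 0.28 and 0.47. Among 11 other CDK1 regulators 9 fell and 1 rose in each MM1 line, with PKMYT1, an inhibitory kinase of CDK1, at -1.01 and -1.07, and CDC25A, an activating phosphatase, at -1.004 and -1.05. CDC25A fell in the KMS-12 lines too, by 0.23 and 0.32, and WEE1, the other inhibitory kinase, fell by 0.68 and 0.45 in the MM1 lines. Of 7 CDK inhibitor genes 0 rose and 1 fell in MM1R and 2 rose and 1 fell in MM1S. CDKN1A, p21, changed by -0.26 in both MM1 lines, called in MM1S, and by -0.69 in KMS-12-PE, where it fell from 27.1 to 16.4 TPM. CDKN1C, p57, rose by 0.38 (MM1S), 0.60 (KMS-12-BM) and 1.16 (KMS-12-PE), from levels of 0.333 to 6.12 TPM.

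DNA replication and G1/S genes fell without exception in the MM1 lines. In both MM1 lines 47 of 47 fell, against 21.2% and 21.1% of all genes, with medians of -0.70 in MM1R and -0.80 in MM1S. RRM2, a subunit of ribonucleotide reductase, changed there by -1.14 and -1.21. In the KMS-12 lines 5 and 13 fell and 1 and 2 rose, with medians of -0.04 and -0.07. Over all genes 6.09% and 22.2% were lower there, and 11.4% and 15.9% higher. The difference of effects between MM1R and MM1S had a median of 0.12 over these genes and of -0.10 over the 45 mitosis and G2/M genes. The difference between these medians was not tested. E2F1 fell by 0.81 and 0.75 in the MM1 lines and was called in neither KMS-12 line.

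**Figure D5:**
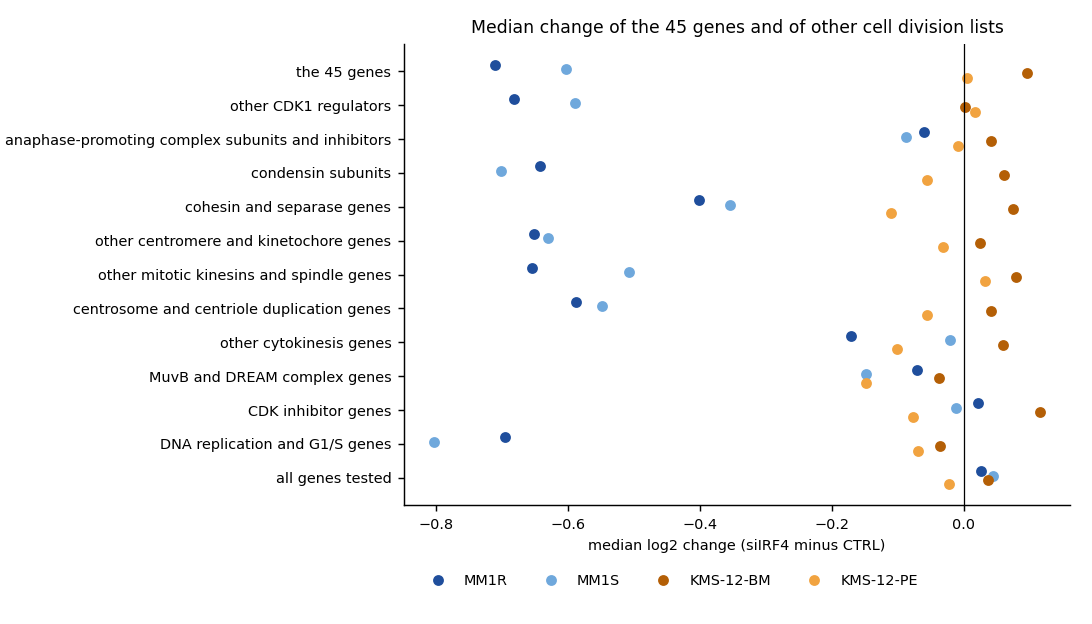
Median log2 change (siIRF4 minus CTRL, x axis) of the 45 genes, of 11 other cell division lists and of all genes tested, with 1 point per line. In MM1R and MM1S the medians of the 45 genes, of condensin, of other kinetochore genes and of G1/S genes lie between -0.80 and -0.60, those of the anaphase-promoting complex and of CDK inhibitors near 0, and the medians in the KMS-12 lines within -0.15 to 0.12.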

How the data were processed

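Total RNA of 24 libraries was sequenced, 3 per line and condition. The authors deposited 1 table of TPM, a read share scaled by transcript length, made with STAR, featureCounts and hg19, per the submitters' processing notes. The sources used here do not give versions, annotation or strandedness. Of 25370 rows, 28 named by calendar dates and 1 without a name were left out. TPM are relative levels, and whole reads recovered from their steps (tolerance 0.02 reads) came to 17.3 to 27.4 M per library over 20484 genes and at least 99.96% of TPM.

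Genes at 1 TPM or more in at least 3 libraries (15113) were fitted as log2(TPM + 1) with limma 3.58.1 (R 4.3.3), 8 group means, 16 residual degrees of freedom, trend and robust empirical Bayes, and Benjamini-Hochberg adjustment within each of 11 comparisons. Fold changes on this scale understate those of low genes. The script was tested on simulated data. Members shown by library are those with the largest and smallest mean fall over the MM1 lines in each role and the most changed ones of each KMS-12 line, and list genes are up to 3 per direction with the smallest p, with a few regulators and markers. UBE2C and PTTG1 are also shown by library, chosen after their values were seen. Members and lists were chosen with earlier results of these data known. The fit was repeated with each library left out, a replicate block, voom on recovered reads, the compared libraries alone, plain empirical Bayes, median-of-ratios scaling, a stricter filter (mean of 5 TPM), all genes unfiltered, and 0.1 as pseudocount. Python 3.11.15 with numpy 2.4.6, pandas 2.3.3 and matplotlib 3.10.9 was used for tables and figures.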

Additional observations from a re-analysis of the deposited data

Results flagged for a closer look

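By limma's test of the difference of effects, the fall was larger in the MM1 lines for 45 of 45 genes, against 20.0% of all genes. For 10 of them the directions also differed, being called lower in both MM1 lines and higher in a KMS-12 line. That pattern was held by 2.0% of all genes, most of which did not fall in both MM1 lines. The KMS-12 rises alone, 6 of 45 in KMS-12-BM and 7 of 45 in KMS-12-PE, were near the shares over all genes (11.4% and 15.9%). The differences of effects (MM1 minus KMS-12) were -0.97 for KIF4A, -0.92 for BUB1, -0.84 for UBE2C, -0.77 for TOP2A, -0.75 for CKS2, -0.75 for KIF23, -0.74 for PTTG1, -0.73 for CCNB2, -0.72 for NUSAP1 and -0.40 for BUB3.

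PTTG1 differed between MM1R and MM1S, by -0.27, beside 1.33% of all genes lower, and that call was lost in some alternatives. Between KMS-12-BM and KMS-12-PE the effects of MKI67 (0.50), CDC25B (0.30), ECT2 (0.29), ANLN (0.28), NDC80 (0.26), TTK (0.26), CKS1B (-0.17), UBE2C (-0.20) and CKS2 (-0.25) differed by the same test. These 6 higher and 3 lower effects of 45 are near or below the 15.9% and 7.11% of all genes. Of them 1 of 6 and 1 of 3 calls, MKI67 and CKS2, were kept in every alternative.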

How the results depend on the processing

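The lower calls of 45 of 45 genes in MM1R, in MM1S, on average over lines and in MM1 minus KMS-12 were kept in every alternative run. No value called in the main fit or in the alternative changed sign between them. Sign changes of values called in neither were not recorded. With voom on recovered reads, 2 genes fell in KMS-12-BM (1 in the main analysis), 13 rose in KMS-12-PE (7) and 5 had a lower effect in KMS-12-BM than in KMS-12-PE (3). For PTTG1, the 1 gene lower in MM1R minus MM1S, the count was 0 under median-of-ratios scaling, voom, a replicate block and the compared libraries alone, and 0 to 1 with a library left out. Leaving out a library gave 4 to 9 genes lower in KMS-12-PE (8), the 4 without siIRF4 replicate 2, with 5 without CTRL replicate 3, and 2 to 9 with a higher effect in KMS-12-BM than in KMS-12-PE (6).

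Same-numbered siIRF4 and CTRL libraries showed little shared deviation (r from -0.088 to 0.086). In KMS-12-BM replicates 2 and 3 each correlated best with their own number (r = 0.082 and 0.086). The labels do not say that the numbers pair samples, and with 3 libraries per group this check cannot exclude pairing. With the replicate block, the genes with a lower effect in KMS-12-BM than in KMS-12-PE numbered 1, and among the values of single genes 4 lost and 2 gained a call. In the KMS-12 lines 4 of 6 higher and 1 of 1 lower calls (KMS-12-BM) and 7 of 7 higher and 4 of 8 lower calls (KMS-12-PE) were kept in every alternative run. Other genes, not called in the main fit, were called in some alternatives. These included BIRC5, KIF20A, CENPE, BUB1B and CENPF in KMS-12-PE and CDK1, CKS1B and SPC25 in KMS-12-BM. The causes were not tested.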
